A study of Mus musculus with 2 samples.

Results

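The genes described are 7 outputs of the circadian clock. They are the transcription factors Dbp, Tef and Hlf of the PAR bZIP family (proline and acidic amino acid-rich basic leucine zipper proteins), their antagonist Nfil3, and the clock-controlled genes Usp2, Wee1 and Nampt. They were chosen by gene symbol, each symbol had 1 row in the table, and they are 7 of 31053 genes. The data are from single nuclei of male mouse medial prefrontal cortex, taken at ZT20, late in the dark phase of a 12 h light/dark cycle. One group is labelled NPAS2 Knockout and the other, their littermates, Wild-type. Each genotype is 1 library made from the pooled tissue of 4 mice, which leaves the values without replicates and allows no test between genotypes. The sources used here do not give the knockout allele, the strain or the age. Libraries were made with a 10x Genomics 3' kit (v3.1), in which each transcript molecule carries a unique molecular identifier (UMI). Values are levels: each nucleus was scaled to 10000 counts and a gene's scaled counts were averaged over nuclei.

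In the mammalian clock, BMAL1 (encoded by Arntl) pairs with CLOCK or NPAS2 and activates genes through E-box sequences. Dbp is a classical target of this pair. The PAR bZIP proteins then activate genes through D-box sequences, and NFIL3, also known as E4BP4, represses through the same sequences. Mice that lack Dbp, Tef and Hlf together develop severe seizures, so the family is known to matter in the brain. The study is about NPAS2 and nap behaviour, and the comparison asks how these outputs differ between the genotypes.

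Stretches before an annotated transcript start of 4 members that were lower in the library labelled knockout are shown because E-boxes and D-boxes are the sequences through which these genes are known to be driven. They come from RefSeq (GRCm38.p6), with matched sequence for 6 of the 7 members, and leave out bases that GENCODE M21 annotates as exons of the gene. Wee1 is named only. The Tef and Usp2 stretches lie within the gene bounds given below, before an internal start. The stretches are, for Dbp, chr7:45704997-45705087 (plus strand), for Tef, chr15:81811164-81811413 (plus strand, the second of its 2 windows), for Hlf, chr11:90390918-90391167 (minus strand) and, for Usp2, chr9:44084670-44084919 (plus strand). Capitals mark an E-box (CACGTG) or a cAMP response element (TGACGTCA).
Dbp: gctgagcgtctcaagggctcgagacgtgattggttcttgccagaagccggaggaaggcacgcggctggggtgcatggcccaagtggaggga
Tef: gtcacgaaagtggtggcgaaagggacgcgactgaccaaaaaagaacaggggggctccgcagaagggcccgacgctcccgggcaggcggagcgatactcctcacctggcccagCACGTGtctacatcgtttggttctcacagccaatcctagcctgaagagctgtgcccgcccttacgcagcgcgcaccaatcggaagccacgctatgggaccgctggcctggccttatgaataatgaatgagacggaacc
Hlf: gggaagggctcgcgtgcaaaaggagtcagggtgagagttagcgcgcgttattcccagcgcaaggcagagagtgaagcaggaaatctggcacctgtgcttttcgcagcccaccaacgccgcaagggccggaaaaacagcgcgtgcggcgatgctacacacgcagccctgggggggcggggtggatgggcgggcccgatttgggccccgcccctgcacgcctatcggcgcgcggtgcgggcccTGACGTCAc
Usp2: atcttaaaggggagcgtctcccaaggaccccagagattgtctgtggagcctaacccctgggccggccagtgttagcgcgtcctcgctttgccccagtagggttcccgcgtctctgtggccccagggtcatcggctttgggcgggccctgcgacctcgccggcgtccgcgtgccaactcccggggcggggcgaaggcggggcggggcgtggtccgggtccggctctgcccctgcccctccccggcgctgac
Both strands of the whole 250 bases before the start were searched in 7 windows of the 6 members, so the Dbp search went past the 91 bases shown. CACGTG was found in both Tef windows, and 6.02% of 32851 windows of this length hold it. TGACGTCA was found in the Hlf window and in 1.55% of all windows. The E-box variant CACGTT (3.85% of all windows) and the D-box letters TTATGTAA (0.819%) and TTACGTAA (0.113%) were in no window of a member. A match describes letters and not a bound site, and a window without one says nothing of bases outside it.

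Facts of the whole data set that touch the results are these. The library labelled knockout held 7161 nuclei with an estimated 3277 UMIs each, and the library labelled wild-type 5578 nuclei with 4032. Npas2 itself, the targeted gene, had a level of 1.39 under the knockout label and 1.29 under the wild-type label, a ratio of 1.08 (1.02 to 1.15). It was thus no lower under the knockout label, and every direction below rests on the label. A 3' tag outside a deleted part does not check a deletion. The authors' 23 numbered clusters pool both libraries. Cluster 6 had 11 of 11 markers of striatal projection neurons raised, a cell type of a neighbouring region, and took an estimated 10.4% of the library labelled wild-type against 1.41% of the library labelled knockout. Clusters 8 (8 of 8 oligodendrocyte markers), 14 (7 of 7 astrocyte and 5 of 5 endothelial markers), 18 (7 of 7 microglia markers) and 19 (6 of 6 precursor and 8 of 8 oligodendrocyte markers) together took 14.1% and 4.68%. A second estimate, by least squares, gave 12.3% against 0% for cluster 6 and 17.3% against 2.24% for the other 4, so these shares are uncertain. Cluster 14 also raised 6 of 7 microglia, 5 of 6 precursor, 5 of 8 oligodendrocyte and 5 of 11 striatal markers, so it is mixed by these markers. Mitochondrially encoded genes had a median log2 ratio of -2.15, knockout over wild-type, with 12 of 12 above the floor defined below at less than 0.5 of their wild-type level.

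Dbp, the PAR bZIP factor best known as a clock output, was lower in the library labelled knockout by the largest margin of the 7 genes. Its level was 0.0514 in the library labelled knockout against 0.112 in that labelled wild-type, on about 121 and 251 UMIs. It was thus 2.18-fold lower, with a 95% counting interval of 1.68 to 2.83 that covers counting error only. Of the 12003 genes above a floor of 0.0461 (the median level of genes above 0), 2.46% had a log2 ratio as low as the -0.99 of Dbp or lower. That log2 ratio carries a pseudocount of 0.01, which puts Dbp just short of 2-fold. Dbp (ENSMUSG00000059824, chromosome 7, 45705088 to 45710203, plus strand, mm10) overlaps Sphk2 on the other strand. Sphk2 had levels of 0.0466 (knockout) and 0.0614 (wild-type), with an interval of its ratio (0.559 to 1.03) that held 1.

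Tef and Hlf, the other PAR bZIP factors, were lower by smaller margins. Tef (ENSMUSG00000022389, chromosome 15, 81802421 to 81826863, plus strand) had 0.328 in the library labelled knockout against 0.468 in that labelled wild-type, 1.43-fold lower (1.28 to 1.59). Hlf (ENSMUSG00000003949, chromosome 11, 90336536 to 90390895, minus strand) had 0.316 against 0.375, 1.19-fold lower (1.06 to 1.34). The log2 ratios of these 3 factors were -0.99, -0.500 and -0.24, so they were lower in the same library by unequal amounts. The interval of Dbp did not overlap that of Tef, and the interval of Hlf overlapped that of Tef. Hlf overlaps no annotated gene, and Tef overlaps Gm17597 on the other strand, with levels of 0.0306 and 0.0282.

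Nfil3, the repressor at the same sequences, pointed the other way without passing counting error. Its level was 0.0614 in the library labelled knockout against 0.0476 in that labelled wild-type, a ratio of 1.29 with an interval of 0.951 to 1.76. It rests on about 144 and 107 UMIs, in sum the fewest of the 7 genes. Nfil3 (ENSMUSG00000056749) lies on chromosome 13, 52967209 to 52981073, minus strand, and overlaps no annotated gene.

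The clock-controlled genes that are not bZIP factors differed among themselves. Usp2, a protease that removes ubiquitin from other proteins (ENSMUSG00000032010, chromosome 9, 44067021 to 44095627, plus strand), had 0.335 in the library labelled knockout against 0.481 in that labelled wild-type, 1.43-fold lower (1.29 to 1.600). Wee1, the kinase that holds back entry into mitosis (ENSMUSG00000031016, chromosome 7, 110122046 to 110143286, plus strand), had 0.159 against 0.142 and a ratio of 1.13 (0.940 to 1.35). Nampt, the rate-limiting enzyme of NAD salvage (ENSMUSG00000020572, chromosome 12, 32819545 to 32853349, plus strand), had 0.117 against 0.134 and a ratio of 0.872 (0.716 to 1.06). Usp2 thus stood with Dbp, Tef and Hlf, while the intervals of Wee1 and Nampt held 1. Wee1 overlaps 1600010M07Rik on the other strand, which had levels of 1.15 (knockout) and 0.947 (wild-type) and a ratio of 1.21 (1.14 to 1.30). Nampt overlaps Gdap10 on its own strand, which had 0.0677 and 0.0581. Usp2 overlaps Gm49380 and Gm39325 on the other strand, the first at 0.0302 and 0.0288 and the second listed at 0. Whether the counting used strand was not stated in these sources, so values of overlapping genes are uncertain. Same-strand overlap, as for Nampt, is not resolved by strand in any case.

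**Figure D1:**
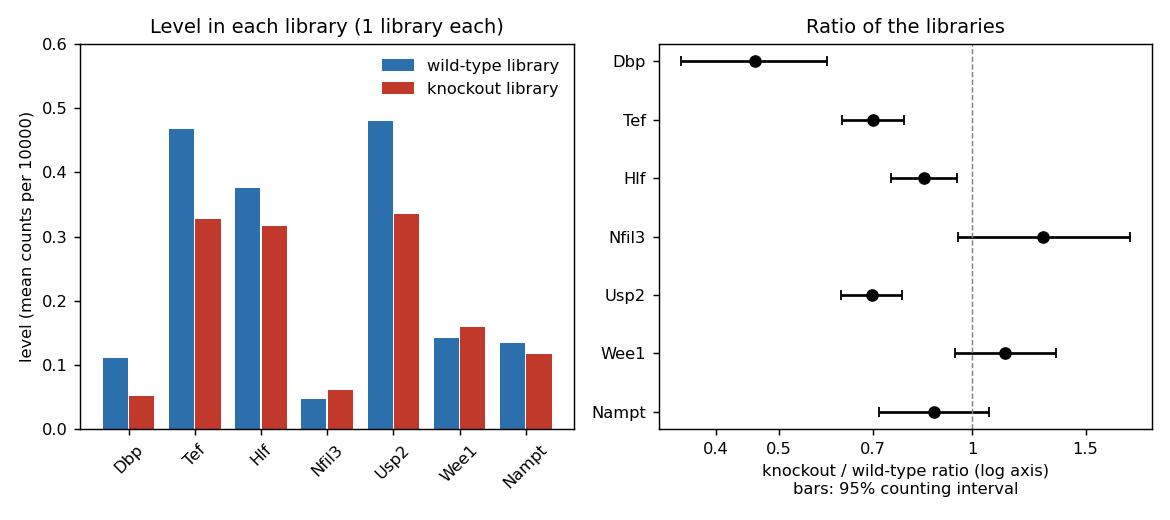
Left, bars give the level (mean counts per 10000 counts of a nucleus) of each gene in the library labelled wild-type (blue) and the library labelled knockout (red), 1 library each. Right, points give the ratio of knockout over wild-type on a log axis with 95% counting intervals, which lie below 1 for Dbp, Tef, Hlf and Usp2 and hold 1 for Nfil3, Wee1 and Nampt.

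Across the 7 genes, all of which lay above the floor, 5 were lower and 2 higher in the library labelled knockout. Of all 12003 genes, 59.2% were lower and 40.8% higher. Counting intervals lay below 1 for 4 members, against 31.4% of all genes, and above 1 for 0 members, against 20.3%. With the pseudocount, 0 members were at least 2-fold lower (2.37% of all genes) and 0 at least 2-fold higher (0.567%), and at 1.5-fold 1 was lower (6.91%) and 0 higher (2.92%). Without the pseudocount Dbp was at least 2-fold lower, as were 2.87% of all genes. The median log2 ratio of the members was -0.24, against -0.06 over all genes above the floor. At 7 genes these shares are a description and set nothing apart.

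Dbp was most abundant in cluster 6, the cluster with striatal markers. Among the 21 clusters with at least 50 nuclei its level was 0.296 there (0.226 to 0.381), 4.75 times the median cluster, and this cluster held 20.4% of the Dbp signal in 5.36% of the nuclei. Cluster 14, mixed by its markers, followed with 0.150, but on fewer than 10 UMIs (0.0509 to 0.343). Inhibitory-like cluster 9, led by Tmem132cos, Sox6 and Btbd11 and raising 5 of 5 inhibitory markers, had 0.134 (0.0767 to 0.217), whereas cluster 13, inhibitory-like by the same 5 markers, had the lowest level of 0.0164 (0.00196 to 0.0596). The intervals of clusters 9 and 13 did not overlap. In clusters 0, 1, 2 and 5 the levels lay between 0.0523 and 0.0574, so the 4 were alike within their intervals. No 2 neighbours in the order of the 21 clusters had separate intervals, and 5 clusters overlapped the interval of cluster 6. Cluster levels pool both libraries, and 56.2% of all nuclei were in the library labelled knockout. An estimated 14.8% of cluster 6 and 29.8% of cluster 14 were in that library, or 0% and 10.8% by least squares. Levels of these 2 clusters, here and below, may thus hold part of a difference between the libraries, which cannot be told apart.

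Tef and Hlf peaked in cluster 14, which carries astrocyte, endothelial and other glial markers. The peak thus cannot be given to a single cell type. Nor can it be told apart from a difference between the libraries, given the shares of cluster 14 above. Tef had 0.912 there (0.624 to 1.29) and 0.738 in cluster 6 (0.624 to 0.866), and its lowest level was 0.204 in cluster 9 (0.132 to 0.302). Tef was thus lowest in a cluster that was among the highest for Dbp. Hlf had 1.37 in cluster 14 (1.01 to 1.82), 4.69 times its median cluster, and 1.004 in cluster 15 (0.756 to 1.31). Cluster 15 raised 3 of 6 excitatory markers and was led by Tshz2, Mirt1 and Vwc2l. The next level of Hlf, 0.546 in cluster 6 (0.449 to 0.657), was separated from cluster 15 by their intervals, the only such step between neighbours for any of the 7 genes. Hlf was lowest in oligodendrocyte-like cluster 8, at 0.126 (0.0544 to 0.249), where Tef had 0.504, above its median cluster. Cluster 7, with 3 of 6 excitatory markers, and cluster 1 also lay above the median cluster for Hlf, with 0.491 and 0.482.

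Nfil3 was low where Dbp was highest. In cluster 6 its level was 0.0187 (0.00487 to 0.0491), on about 4.5 UMIs. This lay below its median cluster of 0.0515 by its interval, and cluster 6 held 1.82% of its signal. In cluster 13 Nfil3 had 0.0149 (0.00151 to 0.0572) on about 2.1 UMIs, an interval that held the median. Over the 21 clusters its Pearson correlation with Dbp was -0.02. Cluster 3, an unnamed cluster led by Ndst4, Abi3bp and Tfap2d, had 0.0889 (0.0611 to 0.125) and was the only cluster above the median by its interval. In clusters 14 and 20 Nfil3 was listed at 0, where 3 UMIs would give 0.0739 and 0.123, so its absence there could not be shown at this depth. The highest levels, 0.104 in clusters 15 and 18, rested on fewer than 10 UMIs each.

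**Figure D2:**
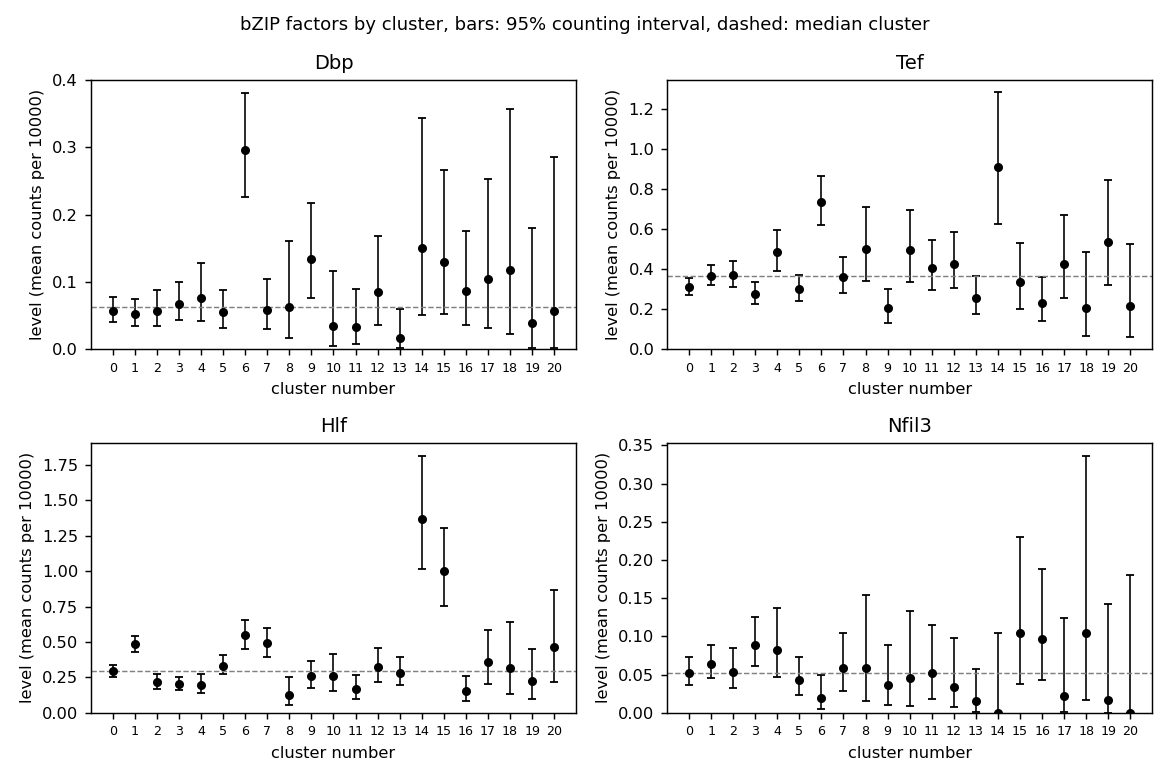
Points give the level (mean counts per 10000) of Dbp, Tef, Hlf and Nfil3 in each of 21 clusters with at least 50 nuclei, both libraries pooled. Bars are 95% counting intervals and dashed lines the median cluster. Dbp stands highest in cluster 6 (0.296), Tef in cluster 14 (0.912) and Hlf in clusters 14 and 15 (1.37 and 1.004). Nfil3 is at 0.0187 in cluster 6, on about 4.5 UMIs.

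Usp2 had the smallest ratio of highest to median cluster of the 7 genes, with Nfil3 next at 2.02. By intervals, 5 clusters lay above the median of Usp2 and 1 below, against 1 and 1 for Nfil3, so Usp2 was not shown to be the most even. Usp2 was highest in microglia-like cluster 18 at 0.721 (0.420 to 1.15) and lowest in cluster 17 at 0.200 (0.0907 to 0.383). Its highest cluster was 1.95 times its median, against a median of 2.21 times over all genes above the floor. Oligodendrocyte-like cluster 8, with 0.581, and cluster 6, with 0.514, also lay above its median cluster by their intervals. Wee1 and Nampt both peaked in cluster 10, which raised 5 of 5 neuroblast markers and has Top2a, a gene of dividing cells, at its head. Cluster 10 also raised 5 of 5 inhibitory, 3 of 6 olfactory bulb, 3 of 7 astrocyte and 3 of 7 microglia markers. It is thus mixed by these markers, and the peaks cannot be given to dividing cells. Wee1 had 0.322 there (0.199 to 0.493), then 0.250 in cluster 1 and 0.219 in cluster 9, and was lowest in cluster 14 at 0.0358. Nampt had 0.274 in cluster 10 (0.162 to 0.435) and 0.238 in cluster 17 (0.117 to 0.432), and its levels elsewhere lay between 0.0578 and 0.190. For these 3 genes 14, 10 and 15 clusters overlapped the interval of the highest one, and no neighbours in the order had separate intervals. Their order is thus not resolved, and neither is which cluster stands highest.

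**Figure D3:**
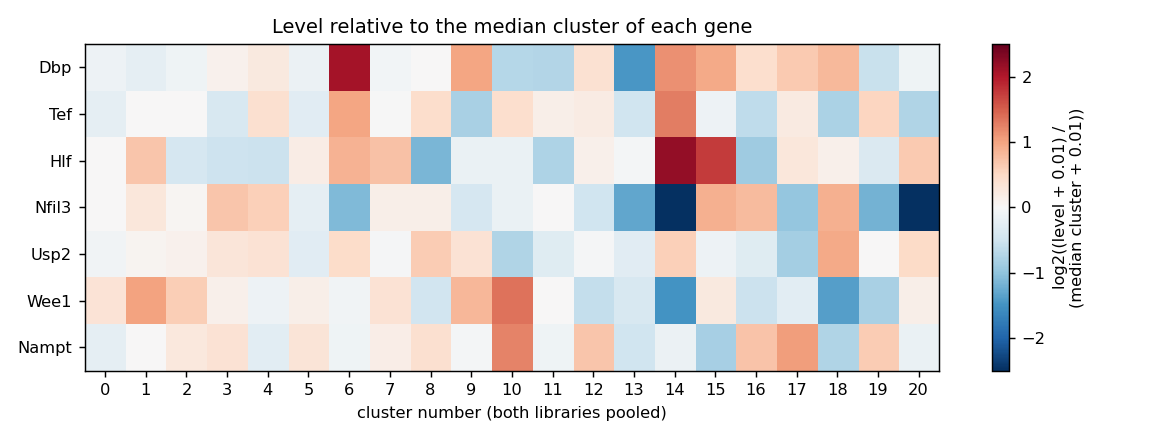
Each cell gives the log2 of a gene's level in a cluster over its median cluster, with 0.01 added to both, for 21 clusters with at least 50 nuclei and both libraries pooled. Red is above and blue below the median cluster. The columns of clusters 6 and 14 are red for Dbp, Tef and Hlf, and that of cluster 10 for Wee1 and Nampt.

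The 7 genes did not share 1 pattern over clusters. Over the 21 clusters, which share depth differences and counting error, the 21 pairs had Pearson correlations of log2 levels from -0.55 (Usp2 and Nampt) to 0.46 (Dbp and Hlf), with a median of -0.05, and 8 pairs were above 0. Dbp with Tef had 0.24 and Tef with Hlf 0.29, so the 3 PAR bZIP pairs were all above 0, while Dbp with Usp2 had 0.43. Spearman's correlation gave 0.04 for Dbp with Tef, 0.09 for Tef with Hlf and 0.32 for Dbp with Hlf. Nfil3 had Pearson values of -0.02, -0.32 and -0.42 with Dbp, Tef and Hlf, and Spearman values of 0.13, -0.28 and -0.30. Among 10818 other genes above the floor with an assigned name, those most like Dbp by Pearson correlation were Kptn (0.76), Tomm70a (0.69) and Rab9b (0.63). Those most like Tef were Ptch1, Rpl31 and Ints14 (0.82, 0.82 and 0.79), and those most like Hlf were Ptrhd1, Slc30a6 and Clybl (0.81, 0.77 and 0.74). Nsun5, Lrrn3 and Kdsr came nearest to Nfil3 (0.799, 0.78 and 0.78), Ncoa4, Nudt6 and Naxd to Usp2 (0.82, 0.81 and 0.78), Nvl, Pde4dip and Anapc5 to Wee1 (0.79, 0.77 and 0.77), and Alg9, Pde7a and Fancm to Nampt (0.74, 0.70 and 0.70). They are the highest of many correlations over 21 points, and most changed with the measure used.

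Since the members differ between clusters and the libraries hold different shares of them, each observed ratio was set beside the one that the estimated nuclei per cluster give with equal levels in both libraries. Dbp had -0.99 observed against -0.35, Usp2 -0.51 against -0.08 and Tef -0.500 against -0.17. For these 3 genes the observed value was lower than the value from nuclei per cluster by 0.63, 0.43 and 0.33 on the log2 scale. Hlf had -0.24 against -0.22, a close match by this estimate of nuclei only. Nampt had -0.18 against 0.04, Nfil3 0.31 against 0.14 and Wee1 0.16 against 0.07. Among all genes above the floor, 1.42% had as low a remainder as Dbp, 5.36% as low as Usp2 and 9.998% as low as Tef. A second estimate of nuclei, by least squares, gave remainders of -0.53, -0.40 and -0.22 for Dbp, Usp2 and Tef and of 0.18 for Hlf. The cluster levels pool both libraries, so the value from nuclei per cluster takes up part of any difference within clusters.

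**Figure D4:**
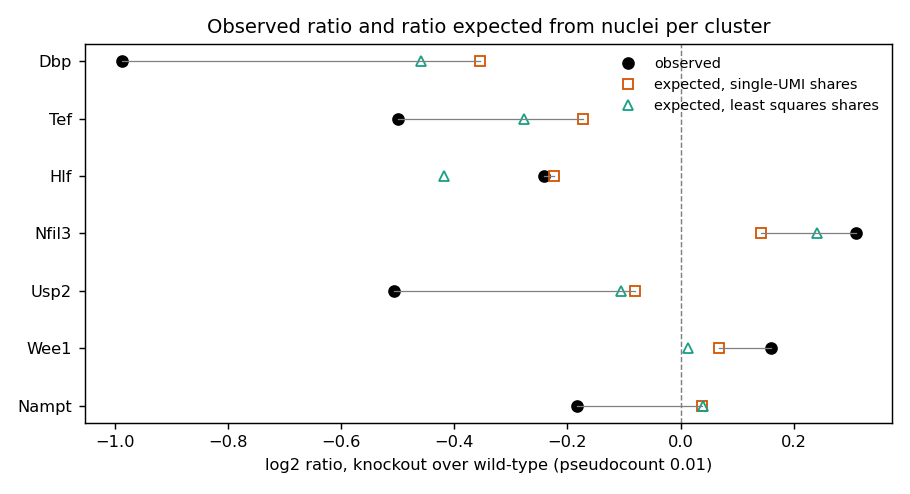
Filled circles give the observed log2 ratio of knockout over wild-type (pseudocount 0.01), squares and triangles the ratio that nuclei per cluster give with equal levels in both libraries, from 2 estimates of those nuclei. The observed value lies below the first estimate by 0.63 for Dbp and close to it for Hlf (-0.24 and -0.22). For Hlf the second estimate lies lower, at -0.42.

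Of the clusters that carried striatal or glial markers, 6, 8, 14, 18 and 19 can also be left out. Clusters 21 and 22 (37 and 20 nuclei), which also raised 8 of 8 oligodendrocyte markers each, stayed in. Clusters 6, 8, 14, 18 and 19 held 30.5% of the Dbp signal in 14.2% of the nuclei. With their signal divided by nuclei, Dbp in the remaining clusters had 0.0458 in the library labelled knockout against 0.0905 in that labelled wild-type, 1.98-fold lower. With all of that signal taken from the library labelled wild-type, the remaining levels were 0.0547 and 0.0763, 1.40-fold lower. Divided by nuclei, Usp2 was 1.43-fold, Tef 1.33-fold and Hlf 1.09-fold lower there, and the extreme division left Usp2 1.13-fold lower, Tef 1.01-fold lower and Hlf with a ratio of 1.19. Clusters 4, 10 and 17 differed the other way, with 17.2% of the nuclei of the library labelled knockout against 7.14%. Without them and with their signal divided by nuclei, Dbp was 2.43-fold, Tef 1.58-fold, Usp2 1.52-fold and Hlf 1.15-fold lower. With all of their signal taken from the library labelled wild-type, Dbp was 1.59-fold lower, while the ratio was 1.01 for Usp2, 1.12 for Tef, 1.16 for Hlf, 1.49 for Nampt, 1.91 for Wee1 and 2.41 for Nfil3. Dbp was lower in the remaining clusters under each of these 4 divisions, given the estimated nuclei, and these folds carry no counting intervals. Each set was left out alone, with the other still in, and levels outside both sets were not computed. For Tef, Hlf and Usp2 a lower level in the remaining clusters does not follow from the table alone. For Dbp a lower level outside both sets does not follow from these values.

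Marker sums of several cell types also differed between the libraries, and their part in the member ratios was not tested. The 8 oligodendrocyte markers summed to 2.76 in the library labelled knockout against 8.50 in that labelled wild-type, with 8 of 8 lower. The 7 astrocyte markers summed to 3.75 against 6.66 (7 of 7 lower), the 7 microglia markers to 2.27 against 3.76 (7 of 7 lower) and the 11 striatal markers to 10.8 against 13.9 (9 of 11 lower), and none of these markers was at 0 in either library. The 6 olfactory bulb markers summed to 10.7 against 6.40, with 6 of 6 higher. The 3 layer 5 markers summed to 1.68 against 1.28, with 3 of 3 higher. The 5 inhibitory markers summed to 3.89 against 3.20 (2 of 5 higher) and the 6 excitatory markers to 9.38 against 9.02 (4 of 6 higher). After both libraries were rescaled without mitochondrially encoded genes and Malat1, the log2 ratio was -1.04 for Dbp, -0.55 for Tef and -0.55 for Usp2. The ribosomal protein genes were lower for 77 of 79 above the floor, with a median log2 ratio of -0.52. Their part in the member ratios was not tested. Of all genes above the floor, 59.2% were lower.

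Related genes were described from fixed lists, whose genes are shown in the plot of lists. Core clock genes went both ways. Of 19 above the floor, 13 were lower and 6 higher, with a median log2 ratio of -0.04 that became 0.023 when scaled to the median ratio of all genes. Arntl, the partner of NPAS2, was higher in the library labelled knockout (0.948 against 0.662, ratio 1.43, 1.33 to 1.55), as was the repressor Per2 (0.225 against 0.155, ratio 1.45, 1.23 to 1.71). Nr1d2, a nuclear receptor that represses Arntl, was lower (0.369 against 0.478, ratio 0.773, 0.695 to 0.860), and Nr1d1, its paralog, had a ratio of 0.758 (0.557 to 1.03). The nuclear receptor Rora had a ratio of 0.877 (0.855 to 0.901), and its log2 ratio of -0.19 was close to the -0.16 from nuclei per cluster. Nuclei per cluster gave -0.01 for Arntl, -0.03 for Per2, -0.10 for Nr1d2 and 0.03 for Nr1d1. The observed log2 ratios of these genes were 0.51, 0.51, -0.36 and -0.34. Of the 8 clock genes known to carry D-boxes, 6 were lower, with a median of -0.09, and 4 when scaled to the median ratio, against 59.2% of all genes lower without that scaling.

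Of the other clock outputs, 5 of 6 above the floor were lower, with a median of -0.36, and 4 had an interval below 1. Over all genes 59.2% were lower and 31.4% had such an interval, and 6 genes are too few to set the list apart. Pim3, a kinase, had 0.0924 in the library labelled knockout against 0.148 in that labelled wild-type, 1.60-fold lower (1.31 to 1.97), and Coq10b, a coenzyme Q binding protein, was 1.44-fold lower (1.26 to 1.64). Nuclei per cluster gave log2 ratios of -0.24 for Pim3 and -0.07 for Coq10b, against -0.63 and -0.50 observed. Tsc22d3, which is also induced by glucocorticoids, was 1.33-fold lower (1.03 to 1.73) and had -0.64 from nuclei per cluster against -0.37 observed, and Leo1 was 1.32-fold lower (1.01 to 1.73). Of 6 genes known as PAR bZIP targets in liver, kidney or brain, 3 lay above the floor. Pdxk, the pyridoxal kinase that activates vitamin B6 (ratio 1.004, 0.874 to 1.16), and Por, the electron donor of cytochrome P450 (1.01, 0.868 to 1.17), had nearly equal levels, and Alas1, the first enzyme of heme synthesis, was 1.27-fold lower (1.07 to 1.51). These intervals do not show that Pdxk and Por were equal, and bound their ratios at 0.874 and 0.868 from below. Below the floor, Ppara, a nuclear receptor of fatty acid metabolism named here after its values were seen, had 0.00918 in the library labelled knockout against 0.0374 in that labelled wild-type, 4.07-fold lower (2.32 to 7.52), and nuclei per cluster gave it a log2 ratio of -0.71 against -1.30 observed.

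The C/EBP factors, bZIP proteins related to the PAR family, were lower for 3 of 3 above the floor, with a median of -0.26, where 59.2% of all genes were lower. Cebpb was 1.62-fold lower (1.29 to 2.05) and Cebpg 1.21-fold lower (1.03 to 1.42), and Ddit3 had a ratio of 0.856 (0.620 to 1.18). For Cebpb nuclei per cluster gave a log2 ratio of -0.26 against -0.63 observed, for Cebpg -0.12 against -0.26 and for Ddit3 -0.19 against -0.19. In NAD metabolism, the pathway of Nampt, 8 of 12 genes were lower, near the 59.2% of all genes, with a median of -0.08, and 6 of 12 when scaled to the median ratio. Nmnat3, which makes NAD from the product of NAMPT, was 1.71-fold lower (1.27 to 2.31). The NAD-dependent deacylases Sirt2 and Sirt3 were 1.39-fold (1.23 to 1.57) and 1.23-fold lower (1.08 to 1.39), while Sirt6 had a ratio of 1.39 (1.17 to 1.66). Nuclei per cluster gave log2 ratios of -0.27 for Sirt2 and -0.02 for Sirt3, against -0.46 and -0.29 observed. Of the genes of mitotic entry, the pathway of Wee1, only Cdc25b lay above the floor, with a ratio of 0.916 (0.733 to 1.15).

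**Figure D5:**
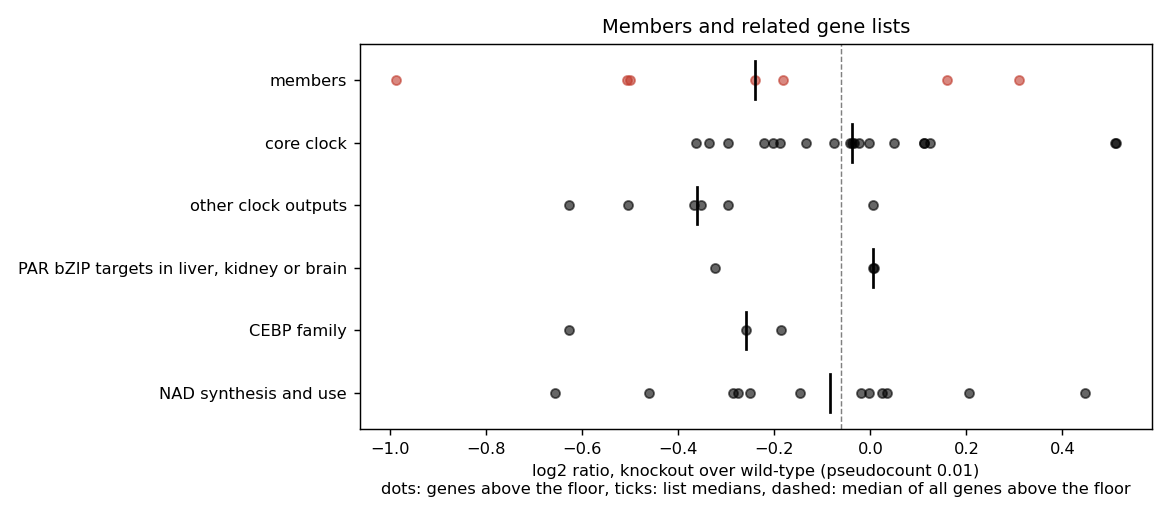
Dots give the log2 ratio of knockout over wild-type (pseudocount 0.01) of each gene above the floor in the members (red) and 5 related lists (black), vertical ticks the list medians and the dashed line the median of all genes above the floor (-0.06). The members run from -0.99 (Dbp) to 0.31 (Nfil3).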

How the data were processed

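The authors deposited 1 table of average normalized expression, a signal that is never negative, per gene for each genotype and for 23 numbered clusters, per the file headers. Every column summed to 10000 over 31053 genes. The genome build was mm10, per the submitters' processing notes; the aligner, filters on nuclei, doublet treatment and clustering tool are not stated in these sources. Nuclei per column were solved from the table as whole numbers (to within 0.001), 12739 in all. In 7339 genes listed in at most 10 clusters, 4157 could be divided between libraries in 1 way, and 9351 values equalled 1 UMI in 1 nucleus (depth whole to within 0.0001). These gave depths and an estimate of the nuclei per cluster and library. A least-squares estimate differed from it, for cluster 4 with 100% against 81.3% of nuclei in the library labelled knockout.

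Log2 ratios used a pseudocount of 0.01, which understates changes of low genes. Ratios of means carry 95% Clopper-Pearson intervals and levels exact Poisson intervals, on estimated UMIs reduced for the spread of depth. They cover counting error only. With 1 library per genotype no test was made. Planned intervals on counts were replaced by these, as the table holds none. Positions are from GENCODE M21. A marker counted as raised at 2-fold over the median cluster and a level of at least 0.05, and a name needed 3. The members and lists were chosen with earlier results of these data known. Named genes were the members, Npas2, up to 4 genes per list with the largest ratios and the 3 genes most like each member; overlapping and cluster-leading genes were named after their values were seen, as was the set of clusters left out. Computation used Python 3.11.15, NumPy 2.4.6, SciPy 1.17.1 and pandas 2.3.3, with figures from matplotlib 3.10.9. The alternatives tried were other pseudocounts, floors, thresholds, scalings, likeness measures and left-out clusters.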

Additional observations from a re-analysis of the deposited data

How the results depend on the processing

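With 1 library per genotype no replicate could be left out. No paired analysis was possible because each genotype has a single library. Of 177 recomputed values, 131 kept their direction and stayed within counting error or 1.5 times the count. A larger pseudocount shrank the log2 ratios by construction: 0.1 gave -0.48 for Dbp, and 1 gave -0.081 for Dbp, -0.14 for Tef, -0.064 for Hlf and -0.15 for Usp2. Subtraction of the value from nuclei per cluster left Dbp at -0.63, Tef at -0.33 and Hlf at -0.017, and with least squares -0.53, -0.22 and 0.18, the last a reversal. With clusters 6, 8, 14, 18 and 19 left out and their signal all taken from the library labelled wild-type, an alternative chosen after seeing the data, Dbp had -0.42, Tef -0.011, Usp2 -0.17 and Hlf a reversed 0.25. The same for clusters 4, 10 and 17, also chosen after seeing the data, gave Dbp -0.595, Nfil3 1.05 and Wee1 0.87. It reversed Tef (0.16), Hlf (0.20) and Usp2 (0.018). Nampt, whose counting interval held 1, also changed sign, from -0.18 to 0.53. The count of members at least 2-fold lower, 0, became 1 at 1.5-fold and 1 without a pseudocount (chosen after seeing the data), Dbp in both. The highest cluster over all 23 was 21 for Nfil3 and 22 for Usp2, of 37 and 20 nuclei, and 15 and 18 among clusters with at least 50 nuclei.

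The genes most like a member mostly changed. Of the 3 named, Spearman's correlation shared 2 for Hlf, 1 for Dbp, Usp2, Wee1 and Nampt and 0 for Tef and Nfil3. The use of all clusters shared 1 for Tef, Hlf, Usp2 and Nampt and 0 for Dbp, Nfil3 and Wee1. The cause was not tested. Scaling to the median ratio turned the core clock median to 0.023 with 8 lower. Without the floor the lower genes numbered 2 among PAR bZIP targets, 5 among C/EBP genes and 4 in mitotic entry, whose median turned to 0.045. The mitochondrial median was -2.02 at a pseudocount of 0.1. Depth limits Nfil3 and Dbp most, and Wee1 and Nampt as well, since most clusters hold fewer than 20 UMIs of each.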
